A study of Homo sapiens with 4 samples.

Results

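The S100, annexin and galectin genes described here are S100A4, S100A6, S100A10, S100A11, ANXA1, ANXA2, ANXA5 and LGALS1, which is 8 of the 19974 protein-coding genes on chromosomes 1 to 22 and X. They were chosen by name, with earlier results of these data known. A STARR-seq peak was given to a gene when its summit lay inside the gene or within 1 kb of either end. Gene positions are RefSeq coordinates on GRCh38.p14, which match hg38 on these chromosomes. Peaks came from MDA-MB-231, a mesenchymal triple-negative human breast cancer cell line, transfected with a STARR-seq library of its own fragmented genomic DNA and kept for 8 h in 10 µM SHP1705, in 100 nM MG132, in 10 µM SHP1705 plus 100 nM MG132 (the combination, or both drugs), or in DMSO, the control. The drugs were added before the library, and poly-A RNA was reverse-transcribed and amplified across a junction found in library transcripts. The submitters call SHP1705 a stabilizer of CRY2, a repressor of the circadian clock, and MG132 inhibits the proteasome. In STARR-seq the inserted fragment becomes part of the transcript it drives, so a peak counts sequenced fragments that align to a place in the genome and does not measure the gene's own expression. Peaks were called without an input library. There was 1 library per treatment, and all 4 libraries are of the same cell line. No spread between replicates could be computed, no p-value is given, and each comparison is between libraries.

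S100 proteins are small EF-hand proteins that mostly bind calcium and work as dimers through partner proteins. Annexins bind acidic phospholipids when calcium is present and take part in membrane trafficking and repair, and the families meet where S100A10 joins ANXA2 and S100A11 joins ANXA1. Galectins bind beta-galactoside sugars on cell surface glycoproteins. Several of the genes are known to be highly expressed in mesenchymal and invasive carcinoma cells.

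The SHP1705 library held 118324303 fragments, which was 3.98 times the 29717604 of DMSO, while MG132 held 27289266 and the combination 28331486. Heights are given as the pileup, the number of fragments over a summit, and per 1000000 fragments of the library. The caller could not report a peak narrower than the library's fragment size, which was 299 bp in SHP1705, 354 bp in MG132, 355 bp in the combination and 346 bp in DMSO. The lowest pileup in a list was 28 in SHP1705, 12 in MG132, 12 with both drugs and 13 in DMSO. Intervals are exact 95% Poisson limits, or limits of a ratio of such counts, and cover counting error only. Duplicate fragments were kept, so the counts may not be independent and the intervals may be too narrow.

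Peaks were found at 7 of the 8 genes in SHP1705, at 4 in MG132, at 3 in the combination and at 3 in DMSO. Over all protein-coding genes the shares with a peak were 78.6% in SHP1705, 54.2% in MG132, 48.1% with both drugs and 44% in DMSO, and the counts at these genes lie near those shares. S100A6 had no peak in any list, as did 11.8% of all genes. S100A4 and LGALS1 had peaks in SHP1705 and in none of the other lists, a pattern of 16.3% of all genes. ANXA2 and ANXA5 had peaks in all 4 lists, as did 26% of all genes. The number of peaks at the 8 genes was 21 of 88588 in SHP1705, 5 of 72587 in MG132, 4 of 59705 with both drugs and 5 of 49863 in DMSO. With the lists shortened to the 49863 peaks of DMSO, SHP1705 had 16.

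**Figure D1:**
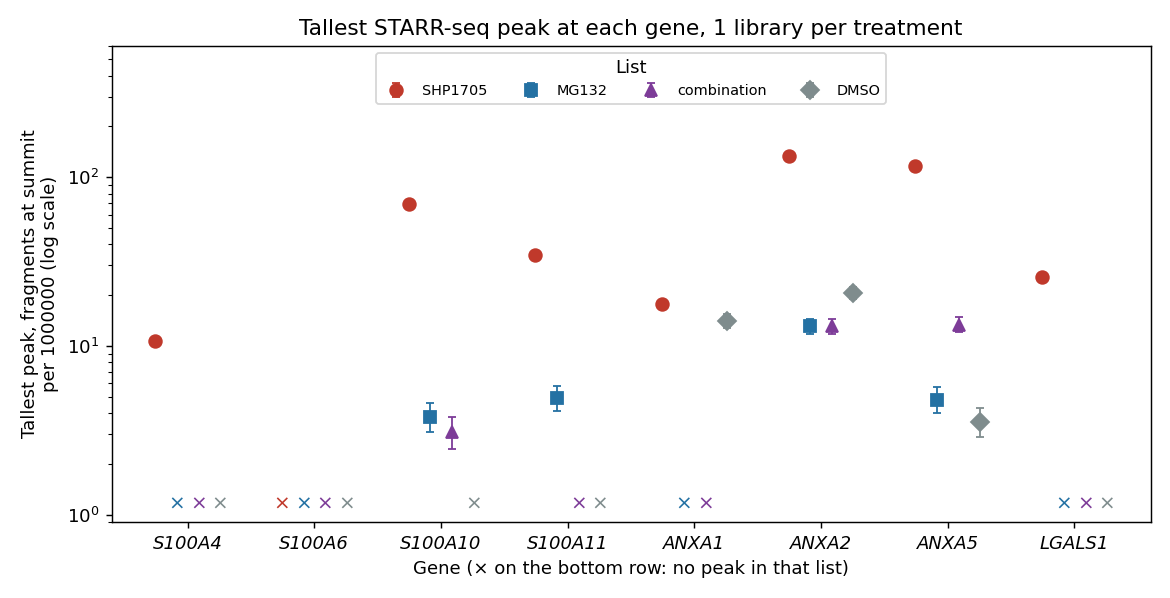
Tallest peak at each gene (log axis, fragments at the summit per 1000000 fragments of the library) in the SHP1705, MG132, combination and DMSO lists, 1 library each. Bars are exact 95% Poisson limits, and a cross on the bottom row marks a list with no peak at that gene. The 7 SHP1705 points lie between 10.6 and 134, and S100A6 has crosses in all 4 lists.

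At the 7 genes with a SHP1705 peak the tallest was taller than most in that list, as the values per gene show. The tallest SHP1705 peak was 134 per 1000000 fragments at ANXA2, 116 at ANXA5, 69.1 at S100A10, 34.6 at S100A11, 25.7 at LGALS1, 17.8 at ANXA1 and 10.6 at S100A4. The median over these 7 genes was 34.6, against 4.07 over all 15700 genes with a SHP1705 peak. The counting intervals of neighbours in this order did not overlap, and the smallest step, ANXA2 over ANXA5, was 1.16-fold. In MG132, the combination and DMSO the medians over the genes with a peak were 4.86, 13.1 and 14.03, against 7.04, 8.97 and 9.79 over all genes with a peak in the same lists.

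In 6 of the 6 genes with a SHP1705 peak and a known strand, the tallest SHP1705 summit lay inside the gene, 169 to 401 bp from its annotated 3′ end. Over all such genes 15.7% had their tallest SHP1705 summit inside the gene within 500 bp of the 3′ end, and 5.34% within 500 bp of the start. The distance of 500 bp was set after the peaks were seen. LGALS1, whose strand was not in the table used, is not among these genes. Its SHP1705 summit lay 1266 bp from the higher-coordinate end and 2900 bp from the lower one. On either strand it was therefore not within 500 bp of the 3′ end. The reference table gives gene ends but no exons, so the peaks are placed by distance and not as exonic or untranslated. The tallest peak lay at the 3′ end of 2 of 4 genes in MG132 (S100A10 and ANXA5), 1 of 3 in the combination (S100A10) and 1 of 3 in DMSO (ANXA5). Over all genes these shares were 4.35% in MG132, 3.53% with both drugs and 4.42% in DMSO.

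**Figure D2:**
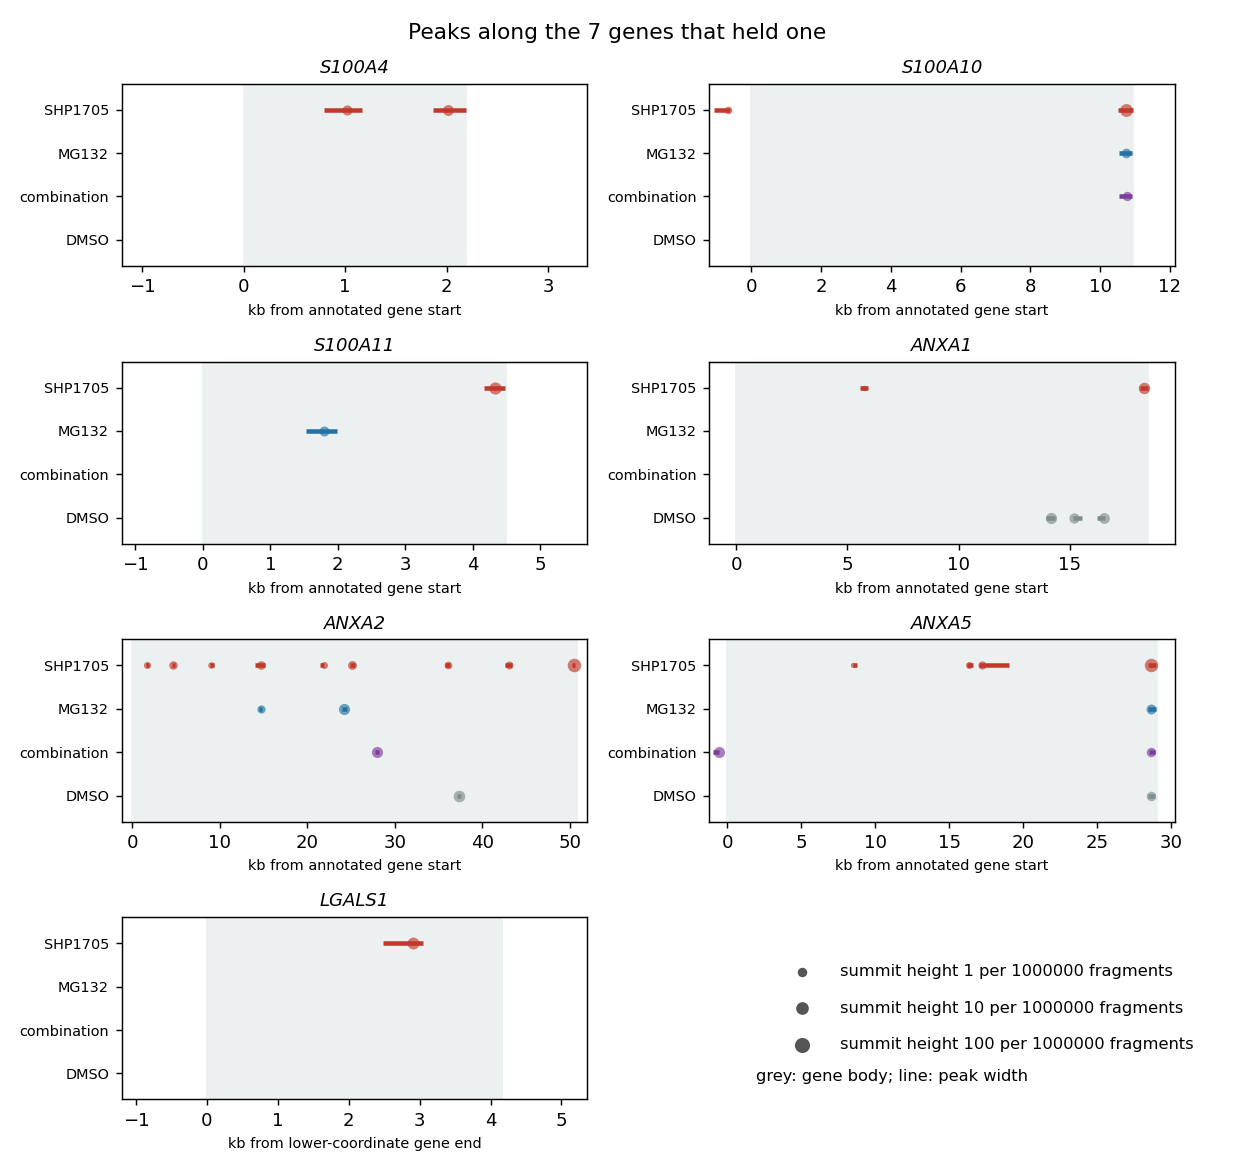
Peaks along the 7 genes that held one, in kb from the annotated gene start (for LGALS1, whose strand was not in the table used, from the lower-coordinate end). Grey marks the gene body, lines the peak width, and the area of a dot grows with the logarithm of the summit height per 1000000 fragments. The largest SHP1705 dots sit at the 3′ ends of S100A10, S100A11, ANXA1, ANXA2 and ANXA5, while DMSO, MG132 and combination peaks of ANXA2 lie at different places inside the gene.

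S100A10, the S100 protein that has lost calcium binding and tethers ANXA2 at the plasma membrane, lies at chromosome 1, 151982915 to 151993859, on the minus strand. Its gene-end peak had 8175 fragments in SHP1705 (151982928 to 151983345), 103 in MG132, 87 in the combination and no peak in DMSO. The 3 peaks covered the same place, with summits 206, 196 and 182 bp from the 3′ end. The SHP1705 library was far above both others there, and MG132 and the combination were close to each other. The combination had 3.07 per 1000000 fragments and MG132 3.77, a ratio of 0.81 (0.60 to 1.09) whose interval includes 1. The nearest DMSO summit was 1677 bp outside the gene, with 410 fragments. A further SHP1705 peak of 107 fragments lay 651 bp before the gene start.

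S100A11, which pairs with ANXA1 in membrane and endosome traffic, lies at chromosome 1, 152032506 to 152037004, on the minus strand. Its SHP1705 peak had 4095 fragments and a summit 171 bp from the 3′ end. MG132 had 134 fragments at another place, 1801 bp inside the gene from its start, and the combination and DMSO had no peak. The 2 lists with a peak therefore did not share a region at this gene.

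S100A4, known as metastasin for its link to invasion and a partner of nonmuscle myosin, lies at chromosome 1, 153543621 to 153545806, on the minus strand. Its SHP1705 peaks had 1258 fragments, with a summit 174 bp from the 3′ end, and 670 fragments in the interior. The taller peak was 1.88 times the other, against 55.5 to 81.0 times at the other genes with several SHP1705 peaks, and it also covers the higher-coordinate end of S100A5. S100A6, or calcyclin, which binds the ubiquitin ligase subunit CACYBP, lies on the same chromosome at 153534599 to 153535991, on the minus strand. The nearest SHP1705 summit to S100A6 was 7804 bp away, at S100A4, and the nearest summits in MG132, the combination and DMSO were 23861, 16882 and 24104 bp away.

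ANXA2, which binds S100A10 and with it plasminogen at the cell surface, lies at chromosome 15, 60347151 to 60397986, on the minus strand. Its gene-end SHP1705 peak (60347331 to 60347713) held 15902 fragments, more than 99.6% of the peaks in that list. The other 8 SHP1705 peaks of the gene held 64 to 265 fragments, so the gene-end peak was 60.0 times the next. MG132 had interior peaks of 357 and 39 fragments, the combination 1 of 370 and DMSO 1 of 610. No list but SHP1705 had a peak at the gene end. The lower MG132 peak was the only one of these interior peaks that shared a region with SHP1705, which had 219 fragments there.

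ANXA5, which binds phosphatidylserine and is used as a probe of dying cells, lies at chromosome 4, 121667946 to 121696980, on the minus strand. Its gene-end peak was the only region of the 8 genes held by all 4 lists, with 13764 fragments in SHP1705, 131 in MG132, 93 with both drugs and 105 in DMSO. The 4 summits lay 396 to 403 bp from the 3′ end. Per 1000000 fragments these were 116, 4.80, 3.28 and 3.53, so SHP1705 was far above the rest, which were within a narrow range. The combination had a taller peak of 379 fragments 523 bp before the gene start (121697495 to 121697954), where the other lists had none.

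ANXA1, an inhibitor of phospholipase A2 in inflammation, lies at chromosome 9, 73151865 to 73170393, on the plus strand. SHP1705 had 2108 fragments at a summit 169 bp from the 3′ end and 38 at an interior peak. DMSO had interior peaks of 417, 292 and 193 fragments, at summits 4381, 1996 and 3324 bp from the 3′ end. MG132 and the combination had no peak, and no region was shared between SHP1705 and DMSO.

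LGALS1, which encodes galectin-1, lies at chromosome 22, 37675636 to 37679802. SHP1705 had 1 peak of 3042 fragments (37678125 to 37678681), with a summit 1266 bp from the higher-coordinate end and 2900 bp from the lower one. The nearest summits in MG132, the combination and DMSO were 44675, 74662 and 18386 bp outside the gene.

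No peak in any list overlapped the promoter window (250 bases before to 50 after the start, RefSeq, GRCh38.p14) of the 7 genes that had one in the table used, all but LGALS1. The upstream bases of ANXA2, the gene with the tallest peak, and of ANXA5 and S100A10, with the peaks nearest to a window, are shown 5′ to 3′. Capitals mark matches, on either strand, to any of the 4 motifs searched.
ANXA2, chr15:60397987-60398236, minus strand: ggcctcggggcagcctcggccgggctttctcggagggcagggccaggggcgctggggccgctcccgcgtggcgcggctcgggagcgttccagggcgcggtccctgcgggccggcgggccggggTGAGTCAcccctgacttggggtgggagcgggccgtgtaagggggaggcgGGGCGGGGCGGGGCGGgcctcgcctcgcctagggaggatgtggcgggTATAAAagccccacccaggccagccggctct
ANXA5, chr4:121696981-121697230, minus strand: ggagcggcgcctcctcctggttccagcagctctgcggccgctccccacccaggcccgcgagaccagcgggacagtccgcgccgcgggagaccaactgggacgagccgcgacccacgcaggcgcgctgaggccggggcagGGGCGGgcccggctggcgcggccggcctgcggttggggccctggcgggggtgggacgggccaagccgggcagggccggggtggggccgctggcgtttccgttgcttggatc
S100A10, chr1:151993860-151994109, minus strand: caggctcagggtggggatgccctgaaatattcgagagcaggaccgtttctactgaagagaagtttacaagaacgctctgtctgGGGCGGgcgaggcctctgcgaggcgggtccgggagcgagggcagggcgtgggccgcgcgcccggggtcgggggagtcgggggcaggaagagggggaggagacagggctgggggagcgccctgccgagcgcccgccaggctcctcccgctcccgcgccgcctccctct
The nearest peak edge was 1500 bp from the ANXA2 window in SHP1705, 265 bp from the ANXA5 window in the combination and 363 bp from the S100A10 window in SHP1705. The GC box of Sp1 factors, GGGCGG, occurred in the upstream 250 bases of 5 of the 7 genes and of 56.0% of 15813 coding genes. TATAAA, bound by the basal machinery, occurred in 3 of the 7 (S100A4, ANXA1 and ANXA2) and in 9.25% of all. The AP-1 motif, TGANTCA, occurred in 1 of the 7, ANXA2, and in 5.05% of all. The E-box of the clock activators that CRY proteins repress, CACGTG, occurred in 0 of the 7 and in 7.83% of all. Neighbouring GC-box matches may overlap each other, and a match is a string of letters and not a bound site.

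Some SHP1705 peaks at these genes were narrower than any peak the other lists could report. Of the 21 SHP1705 peaks, 4 were narrower than the DMSO minimum and 5 narrower than the MG132 and combination minima. These included the gene-end peaks of S100A4, at 328 bp, and S100A11, at 317 bp. Whether width kept these peaks out of the other lists was not tested. At their SHP1705 widths, the gene-end peaks of S100A10 (418 bp), ANXA1 (357 bp), ANXA2 (383 bp) and ANXA5 (543 bp) passed every minimum. The LGALS1 peak (557 bp) did too. Wherever another list shared a region of these genes with SHP1705, its peak was narrower. The S100A10 gene-end peak, for example, measured 371 bp under MG132 and 380 bp with both drugs. ANXA1 and ANXA2 had the narrowest of these SHP1705 peaks, and whether width kept them out of the other lists was not tested. All 14 peaks of the other lists were 361 to 527 bp wide.

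**Figure D3:**
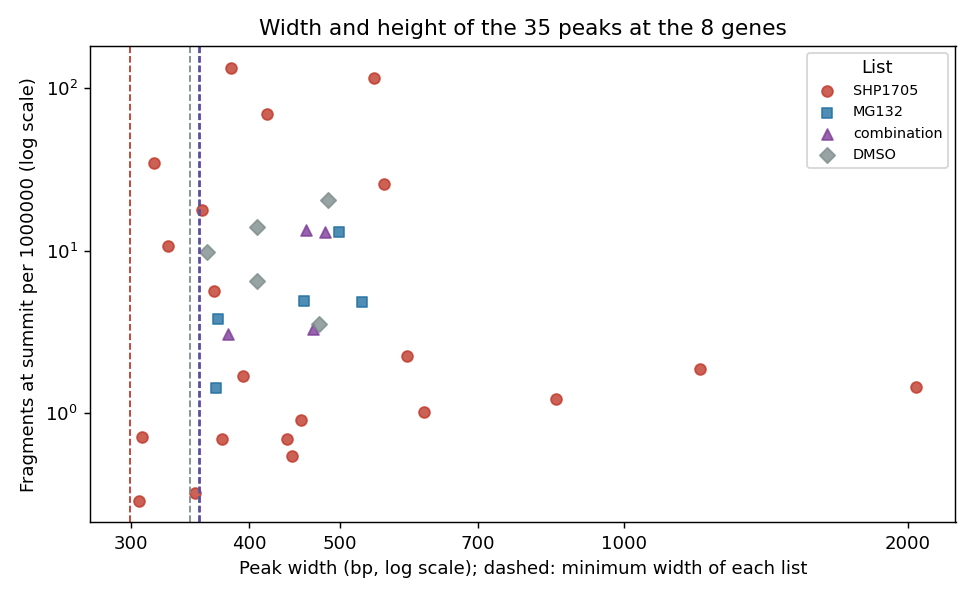
Width in bp against summit height per 1000000 fragments (both log axes) for the 35 peaks at the 8 genes in the SHP1705, MG132, combination and DMSO lists. Dashed lines mark the minimum callable width of each list, 299, 354, 355 and 346 bp, and SHP1705 points left of the other lists' lines could not have been called there at that width.

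The heights that the SHP1705 peaks would have at the other libraries' depth were computed. This scaling takes no account of width. Scaled to the DMSO fragment number, the SHP1705 gene-end peak of ANXA2 would have been 3994 fragments, taller than 99.7% of DMSO peaks, and that of ANXA1 would have been 529, taller than 87.6%. The LGALS1 peak would have been 764, taller than 95.5%, and the S100A10 peak 2053, taller than 99.2%. DMSO had no peak in these 4 regions. Scaled to MG132 and to the combination, the ANXA2 peak would have been 3668 and 3808 fragments, with no peak there in either list.

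SHP1705 was set against DMSO to ask which fragments differ when CRY2 is stabilized. Of the 3 genes with a peak in both lists, ANXA2 and ANXA5 were 2-fold or more higher in SHP1705, against 25.1% of the 8019 genes with a peak in both. No gene of the 3 was 2-fold or more lower, against 50.8%. ANXA5 had 116 per 1000000 fragments in SHP1705 and 3.53 in DMSO, 32.9-fold higher (27.2 to 40.3). ANXA2 had 134 in SHP1705 and 20.5 in DMSO, a ratio of 6.55 (6.04 to 7.11) between peaks at different places. Its log2 ratio was 2.71 per 1000000 fragments, 6.04 scaled to list medians and 4.39 scaled to regions in all 4 lists. ANXA1 had 17.8 in SHP1705 and 14.03 in DMSO, a ratio of 1.27 (1.14 to 1.41), again at different places. The median ratio over all 8019 genes was 0.48. The number of fragments and the width minimum differ along with the treatment between SHP1705 and each other library, and cannot be told apart from it. The labels give 1 protocol for all 4 libraries. Whether the SHP1705 library, with its shorter fragments and its tallest peaks at gene ends, differed from the others in preparation was not tested, and this bears on every SHP1705 height and ratio given here.

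**Figure D4:**
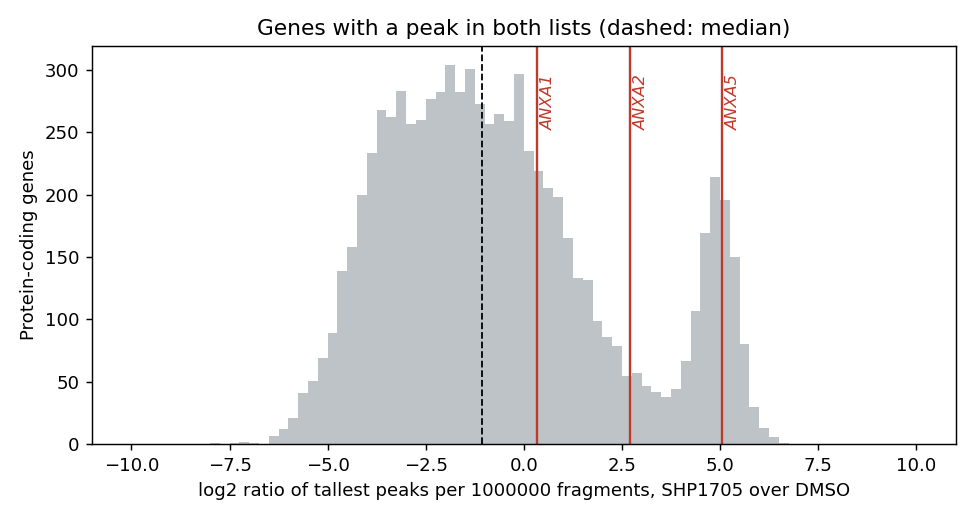
Histogram of the log2 ratio of tallest peaks per 1000000 fragments, SHP1705 over DMSO, for the 8019 protein-coding genes with a peak in both lists. Red lines mark ANXA1 (0.34), ANXA2 (2.71) and ANXA5 (5.04), the dashed line marks the median of -1.06, and ANXA5 lies in a separate hump on the right.

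The ratios over all genes fell into a broad group and a separate hump, and ANXA5 lay in the hump. Between log2 ratios of 4 and 6, a range set after seeing the histogram, lay 1013 genes, or 12.6%. In 90.6% of these the tallest SHP1705 and DMSO peaks covered the same region, as at ANXA5, against 6.29% of the other 7006 genes. Among the 2821 genes with a region held by both lists, 60.4% were 2-fold or more higher in SHP1705 at the tallest such region, with a median ratio of 19.8. The ANXA5 ratio thus lies among those of many other genes.

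MG132 was set against DMSO to ask about proteasome inhibition, and 0 of the 2 genes with a peak in both lists were 2-fold or more higher or lower. Over all 6741 such genes 13.3% were higher and 27.5% lower. At the ANXA5 gene end MG132 had 4.80 per 1000000 fragments and DMSO 3.53, a ratio of 1.36 (1.04 to 1.77) by counting error alone. At ANXA2 the interior peaks, in different places, had 13.1 in MG132 and 20.5 in DMSO.

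The combination was set against DMSO and against each drug alone. Of the 2 genes with peaks in both lists, ANXA5 was 2-fold or more higher in the combination than in DMSO, against 16.3% of 6233 genes, and 0 were lower, against 19.9%. That call rests on the peak before the ANXA5 start, with 13.4 per 1000000 fragments in the combination, against 3.53 at the gene end in DMSO. At the shared gene-end region the combination had 3.28 and DMSO 3.53, a ratio of 0.93 (0.70 to 1.24), and with summits inside the gene only there was no such call.

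The combination contains SHP1705 at the same dose. Its gene-end peaks were nearer in height to those of MG132, and at ANXA5 to that of DMSO, than to those of SHP1705. At the ANXA5 gene end the combination had 3.28 per 1000000 fragments and SHP1705 116, which is 35.4-fold lower in the combination. At S100A10 it had 3.07 and SHP1705 69.1, which is 22.5-fold lower. These sizes depend on the scaling: the S100A10 log2 ratio was -4.49 per 1000000 fragments, -7.62 scaled to list medians and -6.19 scaled to regions in all 4 lists. By tallest peaks, 3 of the 3 genes with a peak in both lists were 2-fold or more lower in the combination than in SHP1705, against 24.4% of 8683 genes. None of the 3 was 2-fold or more higher, against 49.4%. At ANXA2 and ANXA5 these tallest peaks lay at different places in the 2 lists. At shared regions only S100A10 and ANXA5 could be compared. Both were 2-fold or more lower in the combination, as were 51.9% of 2873 genes.

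Against MG132 alone, the combination was 2-fold or more higher at 1 of 3 genes, ANXA5, through the same peak before the gene start, against 24% of 7250 genes, and lower at 0 of 3, against 13.7%. At the ANXA5 gene end the combination had 3.28 and MG132 4.80 per 1000000 fragments, a ratio of 0.68 (0.52 to 0.90) by counting error alone. At ANXA2 the tallest peaks, in different places, had 13.1 in both lists. The comparisons share lists, so their values are set side by side and not counted as separate evidence.

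Pseudogene copies of ANXA2 and S100A11 elsewhere in the genome also held tall SHP1705 peaks, and several held peaks in all 4 lists. ANXA2 has 3 annotated copies, all with a peak in all 4 lists, and S100A11 has 10, of which 3 had a peak in some list. The 6 other genes had none by the symbols searched. No share over all annotated pseudogenes was computed, so whether these counts are unusual was not tested. S100A11P3 ran the other way, with 36 fragments in SHP1705 and 2686 in DMSO, and is described under the other observations. ANXA2P2 (chromosome 9, 33624225 to 33625534) held 86521 fragments in SHP1705, 813 in MG132, 640 with both drugs and 732 in DMSO. This was the 28th tallest of 88588 SHP1705 peaks and 5.44 times the ANXA2 gene-end peak in that list. The peak ran over most of the copy in all 4 lists, with widths of 1079, 1063, 1062 and 1061 bp on a copy of 1310 bp.

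ANXA2P3 (chromosome 10, 64825528 to 64826877) held 14528 fragments in SHP1705, 142 in MG132, 100 with both drugs and 139 in DMSO. ANXA2P1 (chromosome 4, 153307469 to 153308811) held 5806, 36, 40 and 152 in the same lists, and its DMSO peak extended past the copy. S100A11P2 (chromosome 7, 35169175 to 35169704) held 6088 in SHP1705, 49 in MG132, 42 with both drugs and 53 in DMSO. S100A11P1, on the same chromosome, held 3087 fragments in SHP1705 and no peak in the other lists. Per 1000000 fragments SHP1705 over DMSO was 29.7-fold at ANXA2P2, 26.3-fold at ANXA2P3, 28.8-fold at S100A11P2 and 9.59-fold at ANXA2P1. The first 3 values are close to the 32.9-fold of the ANXA5 gene end. MG132 over DMSO at the same copies was 1.21, 1.11, 1.01 and 0.26. How fragments that align equally well to a gene and its copies were placed is not given in the sources used here, so heights at ANXA2, S100A11 and their copies are uncertain.

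**Figure D5:**
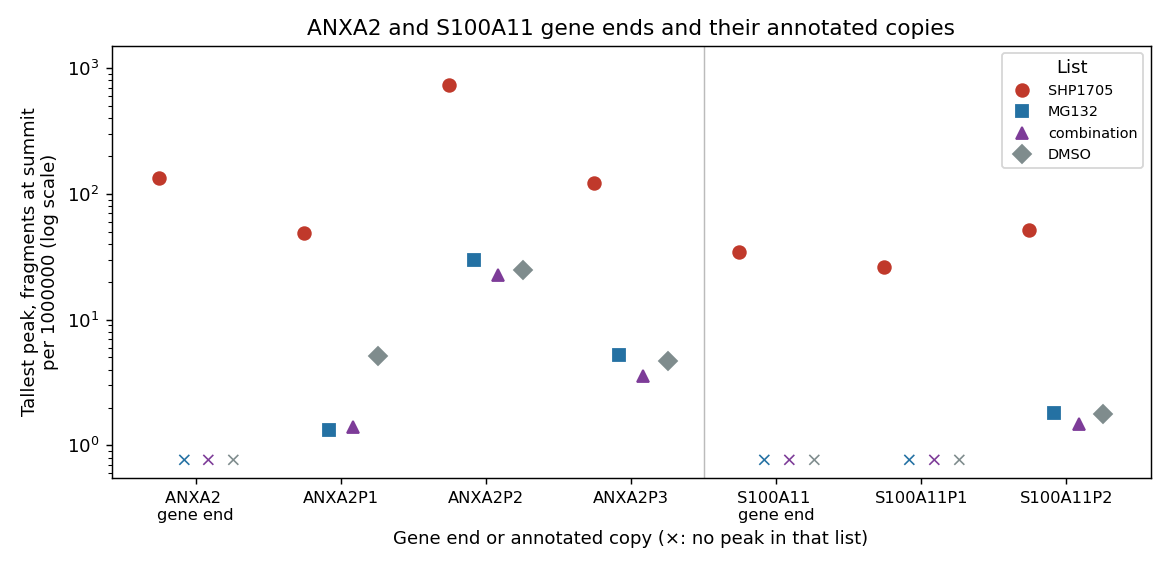
Tallest peak per 1000000 fragments (log axis) at the gene ends of ANXA2 and S100A11 and at 5 of their annotated copies, in the SHP1705, MG132, combination and DMSO lists, 1 library each. S100A11P3, which also held peaks and was higher in DMSO than in SHP1705, is not shown. Crosses mark lists with no peak. The highest point is ANXA2P2 in SHP1705 at 731, and the gene ends have crosses in the 3 other lists where ANXA2P1, ANXA2P2, ANXA2P3 and S100A11P2 have points.

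Among 16 other S100 genes, peaks were found at 6 in SHP1705, 5 in MG132, 5 with both drugs and 3 in DMSO, and 7 had none in any list. The shares were 37.5%, 31.25%, 31.25% and 18.75%, each below the 78.6%, 54.2%, 48.1% and 44% of all genes in the same lists. A longer gene has more room for a summit. These shares, and those of the annexins, galectins and partners below, were not adjusted for length. Many of the other S100 genes are short, such as S100A12 at 1911 bp. The SHP1705 peak counted at S100A5 is also the taller one counted at S100A4. S100A16 and S100A14, neighbours in the chromosome 1 cluster, had tallest peaks in 1 region each across all 4 lists. S100A16 had 41.3 per 1000000 fragments in SHP1705, 1.25 in MG132, 0.95 with both drugs and 1.58 in DMSO. S100A14 had 37.9, 2.86, 1.98 and 2.36 in the same lists. S100Z, a long gene of 102940 bp, ran the other way, with 0.29 in SHP1705, 9.75 in MG132, 0.74 with both drugs and 16.9 in DMSO, at different places.

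Among 10 other annexins, 8 had a peak in SHP1705, 7 in MG132, 8 with both drugs and 5 in DMSO, which is 80%, 70%, 80% and 50%, near or above the shares of all genes. Those in at least 3 lists were ANXA3, ANXA4, ANXA6, ANXA8, ANXA8L1 and ANXA11, and none had its tallest peaks in 1 region. The tallest SHP1705 peaks were 22.9 per 1000000 fragments at ANXA8, whose annotated span is 523804 bp, and 21.3 at ANXA11, a partner of S100A6. Of the 5 annexins with peaks in both SHP1705 and DMSO, 1 was 2-fold or more higher in SHP1705 and 1 lower, with a median ratio of 1.19. Among 13 other galectins, 6 had a peak in SHP1705, 7 in MG132, 4 with both drugs and 3 in DMSO, which is 46.2%, 53.8%, 30.8% and 23.1%, at or below the shares of all genes. LGALS4, LGALS8, LGALS9B and LGALS9C had peaks in at least 3 lists. LGALS4, an intestinal galectin, had tallest peaks of 39.6 in SHP1705, 1.87 in MG132, 6.60 with both drugs and 1.85 in DMSO, the combination peak at another place.

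Of 16 genes for partners and receptors of these proteins, 14 had a peak in SHP1705, 9 in MG132, 11 with both drugs and 11 in DMSO, which is 87.5%, 56.25%, 68.75% and 68.75%, above the shares of all genes. Several of these genes are long, such as MYH9 at 106688 bp and DYSF at 233203 bp, and length was not adjusted for. Among the 10 with a peak in both SHP1705 and DMSO, 8 were 2-fold or more higher in SHP1705 and 2 lower, against the 25.1% and 50.8% of all genes given above, with a median ratio of 25.9. The values are of each gene's tallest peak, which lay in 1 region in all 4 lists at LGALS3BP and CAPNS1 and not at the others named. BSG, a receptor for secreted S100 proteins, had 258 per 1000000 fragments in SHP1705, 9.12 in MG132, 8.82 with both drugs and 9.25 in DMSO. ITGB1, an integrin that galectin-1 binds, had 252, 8.50, 7.17 and 10.6 in the same lists, in that order. LGALS3BP, a secreted galectin ligand, had 207, 12.4, 4.34 and 5.72, and MYH9, the myosin bound by S100A4, had 180, 10.8, 3.21 and 3.50. AHNAK, a scaffold for S100A10 and ANXA2, had 155, 11.5, 28.4 and 19.4, and the calpain subunit CAPNS1 91.4, 2.38, 2.08 and 3.10. CAPN1 and PDCD6 act in membrane repair. CAPN1 had 41.6 in SHP1705, 1.36 in MG132, 5.79 with both drugs and 0.87 in DMSO. PDCD6 was highest in MG132, with 17.3 in SHP1705, 46.7 in MG132, 12.8 with both drugs and 4.14 in DMSO. DYSF, a membrane repair protein, had 1.54 in SHP1705, 10.004 in MG132, 7.20 with both drugs and 11.3 in DMSO. PLA2G4A, a cytosolic phospholipase that ANXA1 inhibits, had 1.21 in SHP1705, no peak in MG132, 70.9 with both drugs and 7.07 in DMSO.

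By the distance between log2 heights over the 4 lists, the coding genes outside these families closest to ANXA2 were EML6 (distance 0.30) and MDGA2 (0.31). Those closest to ANXA5 were TSPAN3 (0.34) and TNKS2 (0.55), among 5182 genes with a peak in all 4 lists. The heights are of each gene's tallest peak. For ANXA2 these lay at different places, and for ANXA5 the combination value is the peak before the gene start. The matches are therefore not of 1 region, and whether they are closer than expected was not tested.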

How the data were processed

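STARR-seq was done in MDA-MB-231 cells with 4 treatments and 1 library each, and the peak list of each library was used. Trimmomatic, FastQC, Bowtie2 and MACS2 are the tools, and hg38 the build, in the submitters' processing notes. Per the file headers, peaks were called with MACS 2.2.6 for each library alone, at a q limit of 0.01, with duplicates kept, no control and a local background over 10000 bp. The pileup is the deposited signal, the fragments over a summit, unscaled. The fold of a peak is the authors' ratio of pileup to local background, and the −log10 p and q of a peak are the authors' deposited values, used within a list for the alternatives and for ranking. Widths and positions, deposited in bp, were used as given.

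Summits were matched to RefSeq genes (GRCh38.p14) with a margin of 1 kb, pileups were divided by the header's fragment number and multiplied by 1000000, and the tallest peak per gene was compared between lists at a 2-fold limit, over all coding genes with a peak in both lists. Peaks sharing 1 bp formed a region. Strand came from the promoter table, for 15813 of 19974 coding genes. Python 3.11.15, pandas 2.3.3, numpy 2.4.6 and scipy 1.17.1 were used, and the counting steps were tested on simulated data. With 1 library per treatment no test was run. Alternatives were the window, the threshold, the width, overlap in place of summit, equal list length, the scaling and the fold. The 8 genes, the gene lists and the tests were chosen with earlier results of these data known. All 8 genes are named, as are other family genes and partners with a peak in at least 3 lists, annotated copies with a peak, and the 2 genes closest in pattern.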

Additional observations from a re-analysis of the deposited data

Results flagged for a closer look

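SHP1705 was added to cells without MG132 (SHP1705 against DMSO) and with it (combination against MG132). At 17 named places the log2 ratio had opposite signs in these settings, by tallest peaks except at ANXA5, where the gene-end region was used. The 17 are not given as a share of the places examined. With 1 library each, the difference was not tested. The pattern is common: of the 421 coding genes whose 4 tallest peaks lay in 1 region, 81.9% were higher in SHP1705 than in DMSO and lower in the combination than in MG132, and 0.475% the reverse. Of all 5190 genes with a peak in all 4 lists, 21.3% had the first pattern and 38.1% the reverse. At the ANXA5 gene end the log2 ratio was 5.04 without MG132 and -0.55 with it, a difference of 5.59. By tallest peaks the ANXA5 log2 ratio was 5.04 without MG132 and 1.48 with it, the same sign in both settings. At the ANXA2 copies it was 4.89 and -0.40 at ANXA2P2, a difference of 5.29, and 4.71 and -0.56 at ANXA2P3, a difference of 5.27. At the S100A11 copy S100A11P2 it was 4.85 and -0.28, a difference of 5.13. Among other S100 genes the difference was 4.54 at S100A14 and 5.09 at S100A16. Among partners and receptors it was 7.44 at MYH9, 4.85 at BSG, 4.82 at ITGB1, 6.69 at LGALS3BP, 5.08 at CAPNS1 and 3.93 at PDCD6. Among marker genes it was 6.78 at VIM, 4.46 at FN1, 5.39 at SPARC and, in the reverse direction, -3.44 at ESR1. The 4 tallest peaks lay in 1 region at LGALS3BP, CAPNS1, VIM and SPARC. At MYH9, BSG, ITGB1, PDCD6, FN1 and ESR1 they did not, so those differences set peaks at different places against each other. At ANXA2 the log2 ratio was 2.71 without MG132 and -0.0025 with it, a difference of 2.71, from tallest peaks at different places. There the combination and MG132 did not differ beyond counting error (ratio 0.998, 0.861 to 1.16), and the sign turned to 0.0904 when scaled to regions in all 4 lists.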

How the results depend on the processing

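No paired analysis was possible because each treatment had 1 library. Of 139 recomputed counts, 126 were unchanged or within 1.5 times the reported one. Many of these were 0 both times and others were small counts, so the total says little about stability. With a 10 kb window DMSO had peaks at 5 genes and MG132 had 9 peaks, and genes past 2-fold numbered 4 higher in SHP1705 than in DMSO, 3 lower in MG132 than in DMSO, 1 lower in the combination than in DMSO and 3 higher in the combination than in MG132. With summits inside genes only, with a 4-fold limit and at shared regions, 0 genes were higher in the combination than in DMSO and 0 higher than in MG132, where 1 was reported, and at shared regions 1 gene was higher in SHP1705 than in DMSO. The shared-region values, and the count without SHP1705 (peaks at 5 genes in any other list), were chosen after seeing the data. At the shared region the ANXA5 log2 ratio was -0.11 for the combination over DMSO and -0.55 over MG132, reversed because the peak before the gene start is left out by construction. Scaled to regions in all 4 lists, the ANXA2 log2 ratio of the combination over MG132 was 0.0904, where -0.0025 was reported. Scaling to list medians moved the ANXA5 log2 ratio of SHP1705 over DMSO to 8.37, where 5.04 was reported, and that of ANXA1 to 3.67, where 0.34 was reported. Pileups near the lowest of each list limit what absence of a peak shows, and no library can be checked against a second one.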

Other observations

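S100A11P3, annotated as a copy of S100A11 with a span of 16027 bp on chromosome 11, did not follow the other copies. Its tallest peak had 36 fragments in SHP1705, 333 in MG132, 338 with both drugs and 2686 in DMSO, or 0.30, 12.2, 11.9 and 90.4 per 1000000 fragments. The tallest peaks did not lie in 1 region, and the DMSO peak, 2244 bp wide at 71520535 to 71522778, ranked 289th of 49863 in that list.

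Peaks do not measure expression, so the cell line could not be checked through its markers. Of 5 mesenchymal genes (VIM, FN1, CAV1, SPARC and AXL), 5 had peaks in SHP1705, 4 in MG132, 5 with both drugs and 4 in DMSO, led by VIM with 589 per 1000000 fragments in SHP1705. CDH1, EPCAM, ESR1 and GATA3 were taken as low or absent in this line. Of these 4 genes, 4 had peaks in SHP1705, 4 in MG132, 3 with both drugs and 3 in DMSO. The shares of all genes in the same lists were 78.6%, 54.2%, 48.1% and 44%. By tallest peaks per 1000000 fragments, CDH1 had 41.7 in SHP1705 and 2.05 in DMSO, and EPCAM 33.4 and 2.05. ESR1 ran the other way, with 2.99 in SHP1705 and 19.1 in DMSO. GATA3 had 0.86 in SHP1705 and no peak in DMSO. Of 3 blood cell genes (PTPRC, HBB and CD3E), 1 had a peak in SHP1705, 1 in MG132, 1 with both drugs and 2 in DMSO, with HBB at none.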
